A study of Homo sapiens with 12 samples.

Results

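The high mobility group (HMG) proteins are small, abundant, non-histone proteins of chromatin, and the mRNAs of 10 of them were looked up: HMGN1, HMGN2, HMGN3, HMGN4, HMGN5, HMGA1, HMGA2, HMGB1, HMGB2 and HMGB3. Every array probe annotated to one of these symbols was taken, which gave 15 probes for 9 genes among the 15025 probes of the table. HMGA2 had no probe there and was not analysed here. The group was chosen by the difference between pull-down and input of HMGN5, which was already known to be high with miR-4307-3p in these data, and the other symbols are its families. The pull-down values of the members are therefore given as a description without p-values. Where a member is said to be called there, its adjusted p was under 0.05, which is also a description and not a test. The comparison of the inputs is tested.

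RNA came from HEK293T, a line derived from human embryonic kidney that makes the large T antigen of SV40. Cells were transfected with 200 pmol of a biotin-carrying microRNA, miR-3118-3p in 2 of the groups and miR-4307-3p in the other 2, and were harvested 24 hours later. Streptavidin beads then recovered the tagged microRNA together with attached RNA. Pull-down and input RNA of each microRNA were each hybridised to 3 Illumina bead arrays, 12 in all, so every group carried a biotinylated microRNA and no group received an unrelated one. The labels do not say that the replicates were separate cultures, and the p-values may therefore reflect technical spread alone.

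The 3 HMG families bind chromatin in different ways. HMGN proteins bind the nucleosome core and loosen the compaction brought about by linker histone H1, HMGA proteins bind the minor groove of AT-rich DNA through AT-hooks, and HMGB proteins bend DNA through HMG boxes. A microRNA guides Argonaute to mRNAs mostly through its seed, bases 2 to 8 from its 5′ end, and an mRNA held in that complex can come down with a biotinylated microRNA. RNA on the beads for other reasons is recovered as well, so a high value in a pull-down is not a site.

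The sequences of the microRNAs are shown because they are the only difference between the pull-downs that the labels give. Both are RefSeq mature sequences (GRCh38.p14), printed 5′ to 3′ with the seed in capitals; RefSeq names them without the arm.
hsa-miR-3118: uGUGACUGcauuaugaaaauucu
hsa-miR-4307: aAUGUUUUuuccuguuucc
The mature sequence of hsa-miR-4307, 19 bases long, lies at chr14:26908697-26908715 on the plus strand, within the noncoding gene MIR4307HG. That of hsa-miR-3118, 23 bases long, is the same at 4 loci, among them chr21:13644784-13644806 on the minus strand, within the span of the gene POTED. The seeds have the same base at 3 of 7 positions. The seed of miR-4307 has 6 A or U bases and that of miR-3118 has 3, so they pair with different sites, AAAACAU and CAGUCAC. No transcript sequence was used, so the members were not searched for these sites.

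Values are log2 as deposited, with array medians between 7.53 and 7.59. Each difference is in log2 units, with its standard error (SE) from a limma fit to every probe and 3 arrays per group. A value is relative to the rest of the RNA on its array. The sources used here do not say if the log2 transform was plain or a variance-stabilising one. The array number limits the precision. The first miR-3118-3p pull-down array, replicate 1, stood apart, with correlations to its group of 0.963 and 0.968 across all probes, against 0.988 or more within the other groups. Of 8 genes taken as typical of HEK293 lines 4 were measured, VIM among them, and of markers of other cells 0 of 5 for blood, 0 of 3 for endothelium, 3 of 4 for epithelium, 1 of 3 for fibroblasts and 1 of 3 for hepatocytes. Among these, the 2 KRT18 probes fell in both pull-downs (-0.77 and -0.63 with miR-3118-3p, -0.66 and -0.53 with miR-4307-3p), ALB fell with miR-3118-3p (-0.50), NEFM rose with miR-4307-3p (0.57), and VIM fell with both (-0.74 and -0.72 on 1 probe). Their part in the results below was not tested.

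HMGN5 and HMGB2 were high in the miR-4307-3p pull-down, and HMGN2 and HMGB3 in the miR-3118-3p pull-down. HMGN5 was above input by 2.73 and the 2 HMGB2 probes by 2.01 and 1.59 in the former. In the latter the same 3 probes lay below input, by values from -0.54 to -0.44. HMGN2 was higher by 1.16, 1.05 and 0.52 on its 3 probes with miR-3118-3p, and HMGB3 by 0.92. The other 5 genes, HMGN1, HMGN3, HMGN4, HMGA1 and HMGB1, had differences between -0.49 and 0.44 in both pull-downs.

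**Figure D1:**
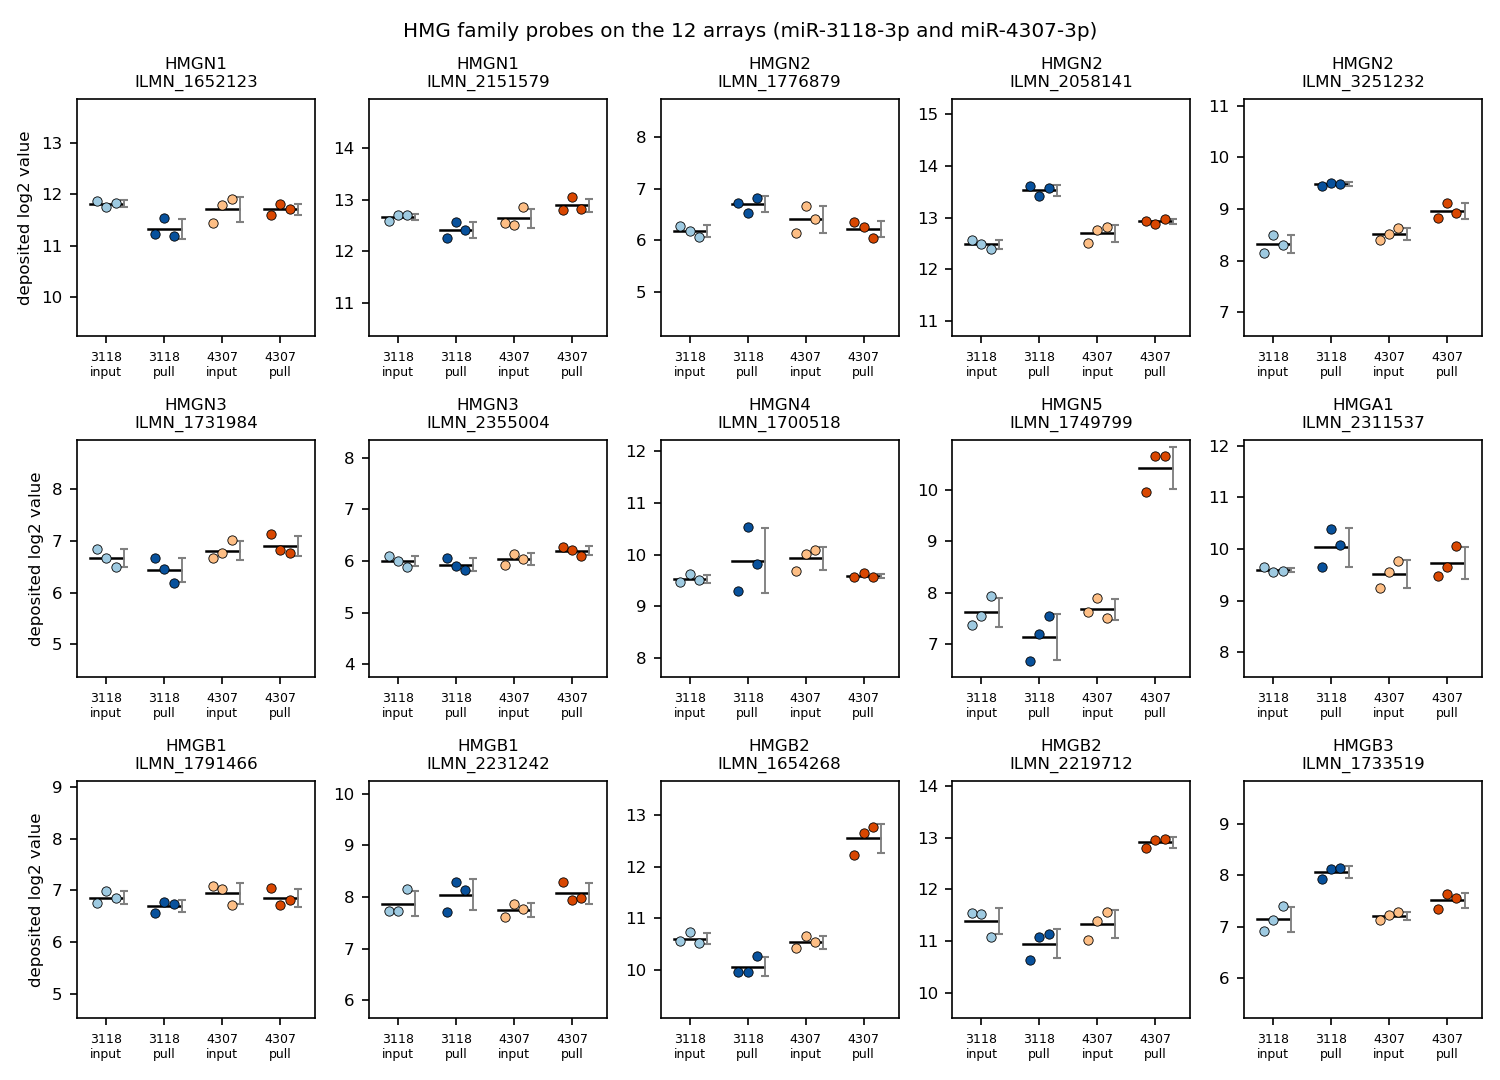
Deposited log2 value (vertical axis, of equal span in every panel) of the 15 HMG probes in each of the 12 arrays, by group; points are arrays, black lines are means and grey bars are 1 SD (n = 3). The miR-4307-3p pull-down stands above the other 3 groups for HMGN5 and both HMGB2 probes, and the miR-3118-3p pull-down for 2 of the 3 HMGN2 probes and HMGB3; on HMGN2 probe ILMN_1776879 it overlaps the miR-4307-3p input.

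HMGN5, the X-linked member with a long acidic tail, was measured by 1 probe (ILMN_1749799). Its values in the miR-4307-3p pull-down were 9.94, 10.65 and 10.66, against 7.63, 7.90 and 7.51 in the inputs of that microRNA. In the miR-3118-3p pull-down they were 6.67, 7.21 and 7.55, against 7.37, 7.56 and 7.94 in the inputs. All 3 miR-4307-3p pull-down arrays lay above the other 9, while the miR-3118-3p pull-down overlapped its input. By group the order was 10.42 ± 0.41 (SD, n = 3) for the miR-4307-3p pull-down, 7.68 ± 0.20 and 7.62 ± 0.29 for the inputs of miR-4307-3p and miR-3118-3p, and 7.14 ± 0.45 for the miR-3118-3p pull-down. The last 3 of these overlapped in their values.

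The difference for HMGN5 was 2.73 ± 0.23 (SE; 95% interval 2.24 to 3.23) with miR-4307-3p, which would be 6.65-fold if the scale is plain log2. It ranked 9th from the top of the 15025 probes. Between arrays of the same replicate number it was 2.31, 2.74 and 3.15, though whether these numbers pair the arrays was not settled. With miR-3118-3p the difference was -0.48 ± 0.23 (interval -0.97 to 0.02), at -0.70, -0.35 and -0.38 by replicate number. This lower value was called without replicate 3 of the pull-down (-0.68), and it was -0.24 without replicate 1. The enrichments of the 2 microRNAs differed by 3.21 ± 0.33 (interval 2.51 to 3.91), or 2.97 without miR-3118-3p pull-down replicate 1.

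HMGB2, a DNA-bending protein that is abundant in dividing cells, had 2 probes and both showed the same order of groups. On ILMN_1654268 the miR-4307-3p pull-down gave 12.23, 12.65 and 12.77 against inputs of 10.42, 10.66 and 10.53. On ILMN_2219712 it gave 12.79, 12.96 and 12.98 against 11.02, 11.38 and 11.55. No pull-down array overlapped an input array on either probe, as for 17.7% of all probes in this direction. The differences of 2.01 ± 0.15 and 1.59 ± 0.17 ranked 31st and 92nd of all probes.

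With miR-3118-3p, ILMN_1654268 read 9.95, 9.96 and 10.28 against inputs of 10.56, 10.73 and 10.53, without overlap, as for 20.2% of all probes in this direction. ILMN_2219712 read 10.62, 11.07 and 11.14 against 11.54, 11.53 and 11.08, with overlap. The mRNA was thus lower than input by -0.54 ± 0.15 and -0.44 ± 0.17 on these probes. The first was not called without pull-down replicate 2 (-0.49), without input replicate 2 (-0.48) or with cyclic loess (-0.43). The second was called only without input replicate 3 (-0.59), among 22 other settings, and was -0.28 without pull-down replicate 1. Between the microRNAs the enrichment of HMGB2 differed by 2.55 ± 0.21 and 2.03 ± 0.25.

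HMGN2, a nucleosome-binding protein present in most cells, had 3 probes and showed the opposite preference. On ILMN_2058141 the miR-3118-3p pull-down gave 13.62, 13.42 and 13.57 against inputs of 12.57, 12.50 and 12.39. On ILMN_3251232 it gave 9.44, 9.51 and 9.49 against 8.16, 8.49 and 8.31. On both, every pull-down array lay about 1 unit above the input array of the same replicate number. The differences of 1.05 ± 0.12 and 1.16 ± 0.13 ranked 177th and 99th of all probes. The third probe, ILMN_1776879, was dim, at percentile 18.6 of all probes by mean input value. The other probes, ILMN_3251232 and ILMN_2058141, were at 66.1 and 98.0. The dim probe read 6.73, 6.53 and 6.83 against 6.28, 6.18 and 6.06, a difference of 0.52 ± 0.15. Its groups did not overlap either, as for 15.7% of all probes in this direction. The difference was not called without input replicates 2 (0.52) or 3 (0.46) or pull-down replicate 3 (0.45).

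With miR-4307-3p the HMGN2 probes did not move together, the dim ILMN_1776879 differing in sign from the brighter probes. ILMN_3251232 read 8.82, 9.12 and 8.92 against inputs of 8.41, 8.51 and 8.64, and ILMN_2058141 read 12.93, 12.88 and 12.98 against 12.50, 12.77 and 12.82. On ILMN_1776879 the pull-down gave 6.35, 6.26 and 6.05 against 6.15, 6.67 and 6.40. The differences were 0.43 ± 0.13, 0.24 ± 0.12 and -0.18 ± 0.15, the last with overlapping groups. The first was not called without pull-down replicates 2 (0.35) or 3 (0.45) or input replicates 1 (0.38) or 2 (0.43), nor with an intensity trend in the moderation (0.43). The enrichment was lower with miR-4307-3p than with miR-3118-3p by -0.73 ± 0.18, -0.81 ± 0.17 and -0.70 ± 0.21 on the 3 probes in the same order. Of these the second was called in all 20 other settings; the first was not called without input replicate 1 of miR-3118-3p (-0.65), nor, for miR-4307-3p, without pull-down replicates 1 (-0.66) or 3 (-0.71) or input replicate 3 (-0.67). The third, not called in the main setting, was called without pull-down replicates 1 (-0.68) or 2 (-0.79) of miR-3118-3p and without input replicate 1 of miR-4307-3p (-0.83), with array weights (-0.87) and with the intensity trend (-0.70).

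HMGB3, an X-linked HMG-box protein known in the mouse from blood progenitors, had 1 probe (ILMN_1733519). The miR-3118-3p pull-down gave 7.93, 8.12 and 8.14 against inputs of 6.91, 7.13 and 7.40. The miR-4307-3p pull-down gave 7.34, 7.63 and 7.55 against 7.13, 7.23 and 7.28. Neither pull-down overlapped its input, as for 15.7% of all probes in this direction with miR-3118-3p and 17.7% with miR-4307-3p. The difference was the larger with miR-3118-3p, at 0.92 ± 0.14 against 0.30 ± 0.14. The latter was not called in the main setting and was called with the replicate number as a block within its 6 arrays (0.30) and with array weights (0.32). The change from one microRNA to the other was -0.62 ± 0.19 (interval -1.04 to -0.21), not called in the main setting and called without miR-3118-3p pull-down replicate 1 (-0.69), without its input replicate 3 (-0.75), with the replicate number as a block (-0.62) and with array weights (-0.63).

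**Figure D2:**
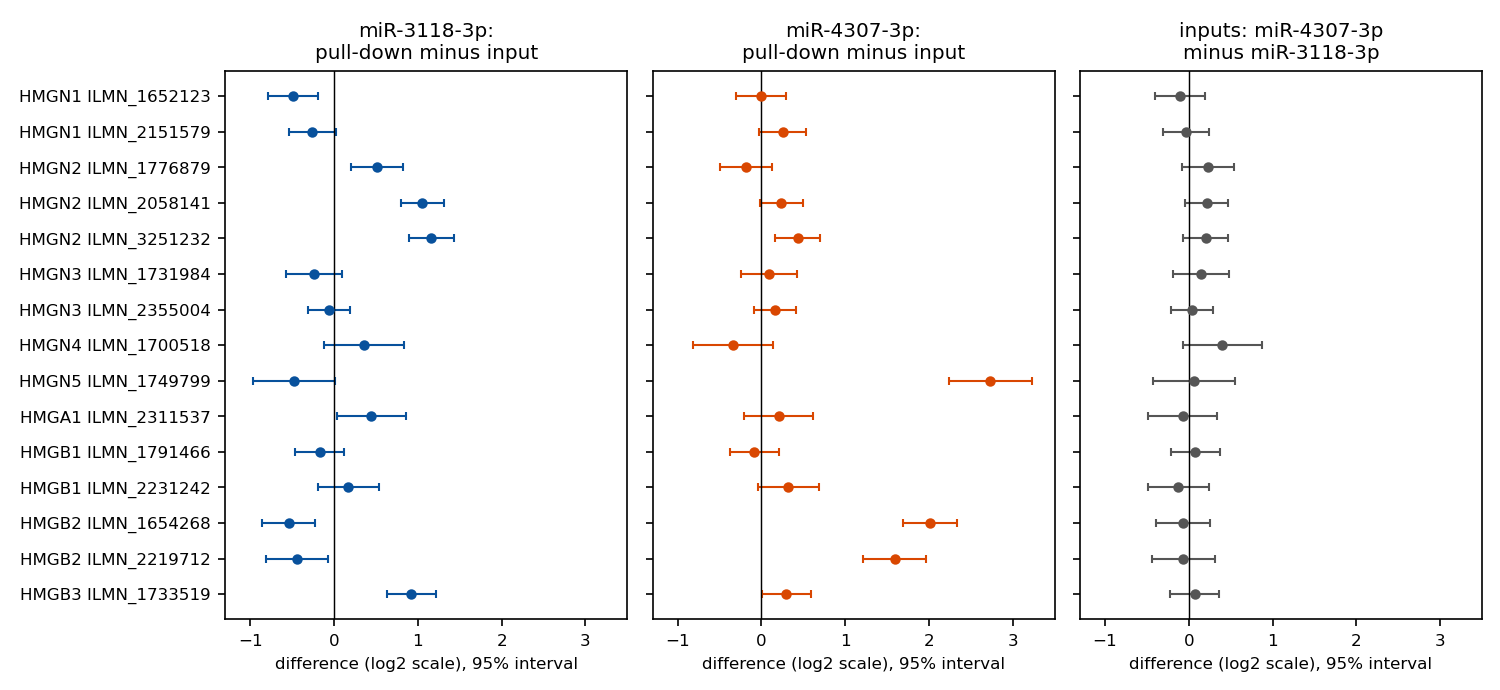
Difference on the log2 scale (horizontal axis) for each HMG probe, with the 95% interval of the fit, for pull-down minus input of each microRNA and for the input of miR-4307-3p minus that of miR-3118-3p (n = 3 arrays per group). HMGN5 at 2.73 and HMGB2 at 2.01 and 1.59 stand out in the middle panel, HMGN2 and HMGB3 in the left panel, and every interval of the right panel includes 0.

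HMGN1, a nucleosome-binding protein encoded on chromosome 21, was lower than input with miR-3118-3p on both probes. ILMN_1652123 read 11.24, 11.55 and 11.19 against inputs of 11.87, 11.75 and 11.83, and ILMN_2151579 read 12.27, 12.57 and 12.41 against 12.60, 12.71 and 12.70. The groups did not overlap on either, as for 20.2% of all probes in this direction, and the differences were -0.49 ± 0.14 and -0.26 ± 0.13. The second (interval -0.54 to 0.02) was not called in the main setting or in any of the 22 others. The first was not called without input replicates 1 (-0.47) or 3 (-0.48), without pull-down replicate 3 (-0.42), with cyclic loess (-0.40) or with these 6 arrays alone (-0.49). With miR-4307-3p the differences were 0.00 and 0.25 ± 0.13, with overlapping groups.

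HMGN4, which is encoded by an intronless gene close in sequence to HMGN2, had the widest spread of any member within 1 group, an SD of 0.62. In the miR-3118-3p pull-down its probe read 9.31, 10.54 and 9.81 against inputs of 9.47, 9.62 and 9.51. With miR-4307-3p it read 9.58, 9.64 and 9.57 against 9.68, 10.01 and 10.10. The differences were 0.36 ± 0.22, with overlap, and -0.34 ± 0.22, without overlap, as for 23% of all probes in the latter direction with miR-4307-3p. The first was 0.65, and called, without pull-down replicate 1, and 0.03 without pull-down replicate 2. Between the microRNAs it differed by -0.69 ± 0.31, and was called without miR-3118-3p pull-down replicate 1 (-0.99) and with array weights (-0.74). The second of the differences was called with the replicate number as a block within those 6 arrays (-0.34) and with array weights (-0.36).

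HMGA1, an AT-hook protein, read 9.64, 10.39 and 10.07 in the miR-3118-3p pull-down against inputs of 9.64, 9.56 and 9.57. Replicate 1 was level with the input array of the same replicate number. The other 2 were above the inputs of their numbers, at differences of 0.83 and 0.50. The mean difference was 0.44 ± 0.19, and it was called without replicate 1 (0.64) and with array weights (0.52). With miR-4307-3p it was 0.21 ± 0.19, with overlapping groups.

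The remaining genes showed small differences. For HMGB1, a DNA-bending protein that also acts as an alarm signal outside the cell, the 2 probes gave -0.17 ± 0.14 and 0.17 ± 0.17 with miR-3118-3p and -0.08 ± 0.14 and 0.32 ± 0.17 with miR-4307-3p. For HMGN3, first described as a partner of the thyroid hormone receptor, the 2 probes, annotated to different transcripts and reading between 5.82 and 7.13 on the 12 arrays, gave -0.24 ± 0.16 and -0.06 ± 0.12, and then 0.09 ± 0.16 and 0.16 ± 0.12. The groups overlapped in 7 of these 8 cases, the exception being HMGB1 on ILMN_2231242 with miR-4307-3p, where the values were 8.30, 7.94 and 7.98 against 7.60, 7.87 and 7.76. That difference was called with the replicate number as a block within its 6 arrays (0.32). With miR-4307-3p 17.7% of all probes were higher than input without overlap.

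Across the 15 probes, the miR-3118-3p pull-down had 4 called higher and 2 called lower (limma, Benjamini-Hochberg adjusted p under 0.05 over all probes), where 11.8% and 12.8% of all probes were called, 24.6% in either direction. Without replicate 1 of that pull-down the 4 became 6, with HMGN4 and HMGA1 added, while the count over all probes went from 1766 to 2377. In the miR-4307-3p pull-down 4 were called higher and 0 lower, beside 7.86% and 8.3% of all probes, 16.2% in either direction. At an unadjusted p under 0.05 there were 5 higher and 0 lower, beside 1947 and 2529 of all 15025 probes. With the replicate number as a block within those 6 arrays, a setting added after seeing the data, there were 6 higher and 1 lower, beside 2353 and 3020 of all probes against 1181 and 1247 without the block. Of the differences between the microRNAs 3 were called higher and 2 lower with miR-4307-3p, beside 4.82% and 2.77%, 7.59% in either direction. Without miR-3118-3p pull-down replicate 1 the 2 lower calls became 5, while those over all probes went from 416 to 1036. The groups did not overlap for 5 higher and 3 lower members with miR-3118-3p, beside 15.7% and 20.2% of all probes, and for 7 and 1 with miR-4307-3p, beside 17.7% and 23%. The median over the members was -0.06 with miR-3118-3p and 0.24 with miR-4307-3p, against -0.03 and -0.04 over all probes. The choice of the group used these contrasts, so nothing is read from its counts.

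**Figure D3:**
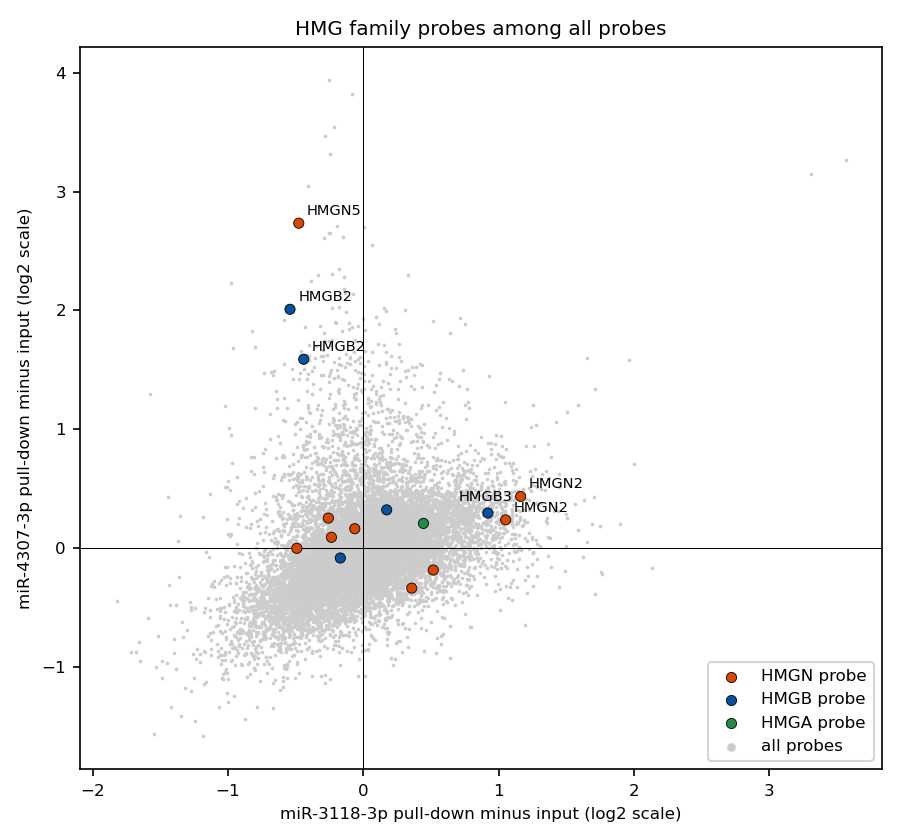
Pull-down minus input on the log2 scale with miR-3118-3p (horizontal axis) and miR-4307-3p (vertical axis), for all 15025 probes in grey and the 15 HMG probes in colour by family; each point is a difference of means of 3 arrays. HMGN5 and HMGB2 lie high on the vertical axis and left of 0, HMGN2 and HMGB3 lie to the right, and the other members lie within the bulk of the probes.

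The inputs bear on whether the members' mRNA differed between the cells given one microRNA or the other, a comparison that did not enter the choice of the genes. None of the 15 probes differed in limma: 0 were called higher and 0 lower, 0 had an unadjusted p under 0.05, and the lowest unadjusted p was 0.091. Over all probes 0% were called, and 252 had an unadjusted p under 0.05. HMGN5 differed between the inputs by 0.06 (interval -0.43 to 0.55), and HMGB2 by -0.07 (-0.39 to 0.25) and -0.06 (-0.44 to 0.31). In bulk RNA such as this, fewer cells expressing a gene and less RNA per cell cannot be told apart. HMGN2 was at 0.23, 0.21 and 0.20 on its 3 probes, with intervals that include 0.

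HMGN4 was the member with the widest gap between the inputs. It stood at 9.93 ± 0.22 (SD, n = 3) with miR-4307-3p and 9.53 ± 0.08 with miR-3118-3p, and these values did not overlap, beside 5.06% of all probes that were higher in this way and 3.94% lower. The difference of 0.40 ± 0.22 (interval -0.07 to 0.88) did not pass the test (limma, adjusted p = 1.00). Its SE drew on the spread of all groups, among them the miR-3118-3p pull-down, where HMGN4 had an SD of 0.62. In the other 21 settings the difference ranged from 0.32 to 0.53, and none of them called it.

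The annotation bears on how these probes can be read. RefSeq names 48 pseudogenes after HMGN2, 50 after HMGB1, 38 after HMGN1, 32 after HMGB3 and 8 after HMGA1, against 1 each after HMGB2 and HMGN3 and 0 after HMGN4 and HMGN5. Whether the probes of HMGN2, HMGB1, HMGN1, HMGB3 and HMGA1 also bind transcripts of such copies was not tested, since probe sequences were not used.

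The genes whose pattern over the 12 arrays was most like that of HMGN5 were DDX10, an RNA helicase, TCEAL4, of the BEX and TCEAL family, LUC7L3, a splicing factor, PSMD6, a proteasome subunit, and IFT74, of intraflagellar transport. Their Pearson correlations with HMGN5 were 0.995, 0.993, 0.991, 0.991 and 0.989, out of 9582 other genes each taken by its brightest probe. All 5 were high in the miR-4307-3p pull-down, by 1.89, 1.57, 1.57, 0.99 and 2.25, and below input in the other, by values from -0.39 to -0.20. Such correlations mainly restate that the 3 arrays of one group stood apart from the other 9. HMGB2 came 89th in this order, at 0.956, and HMGN1 687th, at 0.753. HMGN2 came 5342nd, at -0.13.

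Other chromatin genes were taken from 4 lists, of which 22 of 38 other HMG-box genes, 2 of 10 linker histones, 25 of 30 histone chaperones and 7 of 11 AT-hook proteins were measured. The lists were chosen with earlier results of these data known, and the genes named were picked from the called probes. Their p-values, here and below, are therefore a description and not a test. Of 27 probes of other HMG-box genes, 2 rose and 2 fell with miR-3118-3p, and 3 rose and 0 fell with miR-4307-3p. Over all probes the shares that rose and fell were 11.8% and 12.8% with miR-3118-3p and 7.86% and 8.3% with miR-4307-3p. TFAM, which packages mitochondrial DNA, rose by 0.91 ± 0.18 with miR-3118-3p (limma, adjusted p = 0.00311). BBX, an HMG-box transcription factor, rose by 0.87 ± 0.20 with miR-4307-3p (limma, adjusted p = 0.00933), and the call was lost without pull-down replicate 3 (0.79). Its miR-3118-3p difference was 0.47 ± 0.20 and was called without pull-down replicate 1 (0.75). The transcription factors SOX18 and SOX2 fell with miR-3118-3p by -0.59 ± 0.16 and -0.52 ± 0.14, and both calls were lost without input replicate 2 (-0.52 and -0.50) or 3 (-0.50 and -0.50), that of SOX18 also with those 6 arrays alone (-0.59). The SOX2 values are those of ILMN_1770635, and its probe ILMN_2177156 stood at -0.45 with miR-3118-3p and was not called. The median over the 27 probes was -0.06 and -0.03 with the 2 microRNAs, close to the -0.03 and -0.04 of all probes.

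Of 32 probes of histone chaperones, 6 rose and 3 fell with miR-3118-3p, and 5 rose and 0 fell with miR-4307-3p, at medians of 0.14 and 0.11 against -0.03 and -0.04 over all probes, where 11.8% and 12.8%, then 7.86% and 8.3%, were called. PTMA, the acidic histone-binding protein prothymosin alpha, moved in opposite directions. It fell by -0.93 ± 0.14 with miR-3118-3p (limma, adjusted p = 0.000607) and rose by 0.60 ± 0.14 with miR-4307-3p (limma, adjusted p = 0.0102), and the difference of 1.53 ± 0.20 was called too (limma, adjusted p = 0.000195). Its sign pattern was that of HMGB2. UBN2, a partner of the histone chaperone HIRA, rose with miR-3118-3p by 0.64 ± 0.16 on ILMN_3248928 (limma, adjusted p = 0.00846). Its probe ILMN_1685855 stood at 0.35 and was not called. NAP1L1, a nucleosome assembly protein, rose with miR-3118-3p by 0.79 ± 0.22 on ILMN_1699208. That call was lost without input replicate 1 (0.68) or pull-down replicates 2 (0.63) or 3 (0.61) or with those 6 arrays alone (0.79). The NAP1L1 probes ILMN_1705876 and ILMN_2408815 stood at 0.36 and 0.18 and were not called. DAXX, a chaperone of a histone H3 variant, rose with miR-4307-3p by 0.64 ± 0.19, a call lost without any 1 of those 6 arrays (0.58 to 0.68).

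Linker histones had 2 probes, of which 1 fell with miR-3118-3p, that of H1-2 by -0.86 ± 0.18 (limma, adjusted p = 0.00432). With miR-4307-3p it stood at -0.21 ± 0.18. Of 8 probes of AT-hook proteins other than HMGA1, 2 rose and 1 fell with each microRNA, at medians of 0.13 and 0.35 against -0.03 and -0.04 over all probes, where 11.8% and 12.8%, then 7.86% and 8.3%, were called. BAZ2B, a bromodomain protein, rose with miR-4307-3p by 1.10 ± 0.17 (limma, adjusted p = 0.000431) and stood at 0.20 ± 0.17 with miR-3118-3p, where it was called without pull-down replicate 1 (0.41). DNTTIP1, of a histone deacetylase complex, fell with both, by -0.89 ± 0.13 and -0.70 ± 0.13 (limma, adjusted p = 0.000439 and 0.00179). SETBP1 rose by 0.60 ± 0.12 with miR-3118-3p, and its rise of 0.42 ± 0.12 with the other microRNA was lost without pull-down replicates 1 (0.41) or 3 (0.37) or input replicates 2 (0.38) or 3 (0.43). KMT2A, a histone H3 methyltransferase, rose by 0.51 ± 0.13 with miR-3118-3p, a call lost without input replicate 1 (0.46) or with those 6 arrays alone (0.51). With miR-4307-3p, TFAM (0.45), NAP1L1 (0.54), KMT2A (0.34) and SOX18 (-0.40) were not called in the main setting and were called with the replicate number as a block within the 6 arrays.

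**Figure D4:**
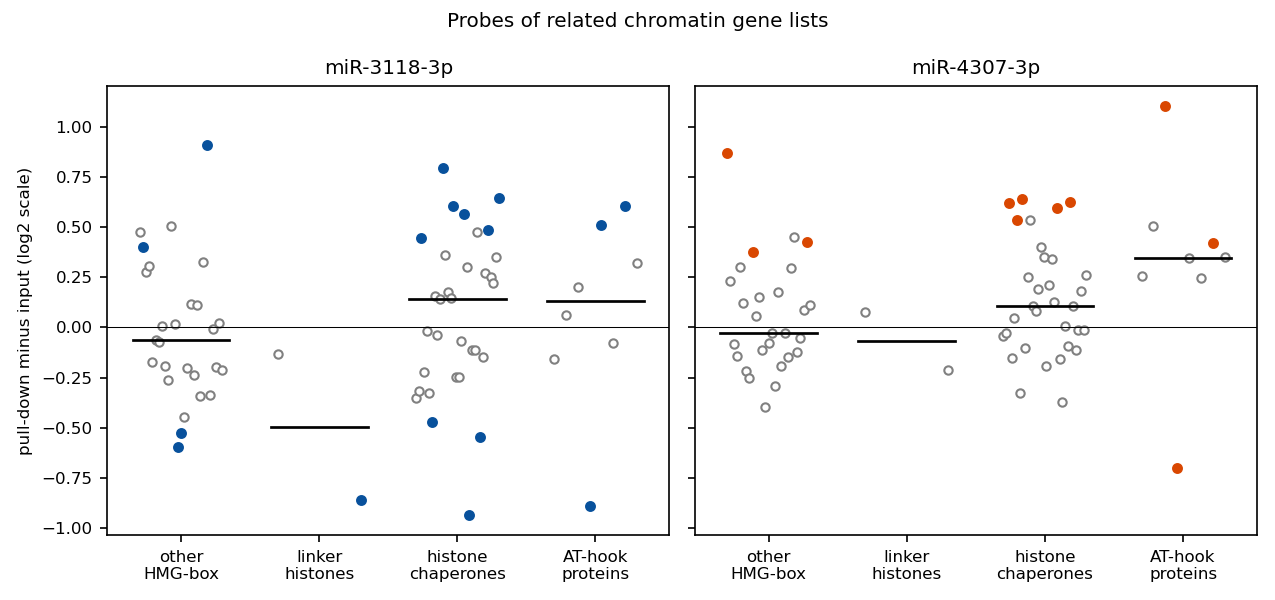
Pull-down minus input on the log2 scale (vertical axis) for each probe of 4 lists of related chromatin genes, by microRNA; filled points have a limma adjusted p under 0.05, open points do not, and black lines are list medians. The lists hold 27, 2, 32 and 8 probes, with values between -0.93 and 1.10 in either pull-down.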

How the data were processed

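The log2 values used were deposited by the authors in the series matrix; lumi 2.2.1 is named in the submitters' processing notes. The sources used here do not give the normalization, transform or probe filter. A table of signals was not used, because none of its 12 value columns could be tied to a sample by name, and no background or detection filter was possible. Groups and replicate numbers came from the sample titles. Gene names came from the platform annotation, and 12352 of 12354 probes with 1 symbol matched a RefSeq gene identifier.

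All 15025 probes were fitted with limma 3.58.1 in R 4.3.3 (lmFit, eBayes) over 4 group means and 12 arrays, 8 residual degrees of freedom, with no block. P-values were two-sided, adjusted by Benjamini-Hochberg over all probes, threshold 0.05; "called" means past it. Identical arrays were looked for, and 0 were found. The members and the 4 related lists were chosen with earlier results of these data known. The text names every member probe, up to 4 called probes of each related list by size of difference, and the 5 genes most correlated with HMGN5.

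The fit was tested on simulated data. To see whether replicate numbers pair pull-down with input, deviations from group means were correlated. The 3 pairs of miR-4307-3p gave 0.204, 0.342 and 0.286, and those of miR-3118-3p gave 0.344, 0.0736 and 0.476. These ranges overlap and pairs of unlike replicate number were not correlated, so pairing was not settled for either microRNA. The main fit used no block, and its SEs take no account of any pairing. Alternatives were 1 probe per gene, only the 6 arrays compared, a replicate block, array weights, an intensity trend, quantile, cyclic loess and median scaling, leaving out the dimmest 25% of probes, and leaving out each array. Figures were drawn with matplotlib 3.10.9.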

Additional observations from a re-analysis of the deposited data

Results flagged for a closer look

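The difference in enrichment between the microRNAs, miR-4307-3p minus miR-3118-3p, was called for 5 HMG probes (limma, adjusted over all probes). It was 3.21 for HMGN5, 2.55 and 2.03 for HMGB2 on ILMN_1654268 and ILMN_2219712, and -0.81 and -0.73 for HMGN2 on ILMN_2058141 and ILMN_3251232. Over all probes 7.59% were called for this difference in either direction. The genes were chosen with results of the enrichment comparisons known, so all 5 values describe the pattern and do not test it.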

How the results depend on the processing

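Of 60 differences (15 probes in 4 comparisons), 45 kept their side of the threshold in every setting run and 33 kept their direction too; 12 that were never called changed sign in 23 cases, and 0 called values did; HMGN5 and both HMGB2 probes with miR-4307-3p, and HMGB3 and the first-named pair of HMGN2 probes with miR-3118-3p, were called throughout (HMGN5 from 2.61 to 2.97). The sign changes with another scaling or weighting were HMGN1 ILMN_1652123 with miR-4307-3p (0.00, 0.030 with quantile normalization, 0.11 with cyclic loess) and HMGB1 ILMN_2231242 in the difference (-0.030 with array weights). Leaving out 1 array gave, with miR-4307-3p, -0.14 to 0.093 for that HMGN1 probe and -0.020 to 0.19 for HMGN3 ILMN_1731984, and in the difference -0.029 to 0.16 and -0.020 to 0.27 for HMGB1 ILMN_1791466 and ILMN_2231242. Between the inputs it gave -0.20 to 0.029 and -0.14 to 0.027 for HMGN1 ILMN_1652123 and ILMN_2151579, -0.014 to 0.10 for HMGN3 ILMN_2355004, -0.064 to 0.22 for HMGN5, -0.20 to 0.067 for HMGA1, -0.20 to 0.019 for HMGB1 ILMN_2231242, -0.22 to 0.083 for HMGB2 ILMN_2219712 and -0.050 to 0.19 for HMGB3. Among related genes it gave -0.12 to 0.38 for DAXX with miR-3118-3p and -0.17 to 0.056 for SOX2 with miR-4307-3p, neither called in these. With 1 probe per gene, the members called with miR-3118-3p were 2 higher and 0 lower, with miR-4307-3p 2 higher, and lower in the difference 1, because fewer probes were tested. Over all probes then tested, 770 were called higher with miR-4307-3p and 274 lower in the difference, against 1181 and 416 in the main setting. Lower members with miR-3118-3p numbered 1 with only the 6 arrays compared and 0 with cyclic loess. With those 6 arrays the lower calls over all probes went from 1928 to 892. With array weights 1 was lower with miR-4307-3p and 5 in the difference, where the lower calls over all probes went from 416 to 899. Leaving out 1 array gave 3 to 6 higher and 1 to 2 lower with miR-3118-3p, 3 to 4 and 0 to 0 with miR-4307-3p, and 3 to 3 and 1 to 5 in the difference. The replicate number as a block over all 12 arrays added 1 call, HMGB3 in the difference (-0.62), and changed no other member. Blocks within the 6 arrays of 1 microRNA, a setting added after seeing the data, gave 6 higher and 1 lower with miR-4307-3p, adding HMGN4 (-0.34), HMGB1 on ILMN_2231242 (0.32) and HMGB3 (0.30), and with miR-3118-3p added HMGN5 (-0.48); all probes called with miR-4307-3p were then 2353 higher and 3020 lower, against 1181 and 1247. Over all settings the counts of all probes ran from 863 to 2377 higher and 892 to 2476 lower with miR-3118-3p, 770 to 2353 and 553 to 3020 with miR-4307-3p, and 453 to 941 and 242 to 1036 in the difference. Among related lists, histone chaperones ranged from 2 to 10 higher with miR-3118-3p and 2 to 9 with miR-4307-3p. Other HMG-box probes ranged from 0 to 6 higher and AT-hook probes from 1 to 7 higher with miR-4307-3p. Called with miR-4307-3p after leaving out 1 array of the other microRNA were TFAM (0.45), NAP1L1 (0.54) and KMT2A (0.34). Signal over background was not used here, so how far dim probes limit these values is unknown.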
